A study of Mus musculus with 6 samples.

Results

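Astrocytes take up water, ions and neurotransmitter through a small set of membrane proteins, and 9 genes of that set were followed here in cultured mouse neural progenitor cells. They are Aqp4, Mlc1, Gja1, Gjb6, Slc1a2, Slc1a3, Glul, Slc4a4 and Atp1b2, chosen by symbol for what their proteins do. All 9 were found among the 22057 genes of the deposited table, and all 9 passed the filter on low values that left 17068 genes to test. Gjb6 passed only through its level in PDGFA.

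The progenitors, which divide in culture and can give rise to neurons and glia, came from 3 mice (62, 68 and 69) labelled p53-null, so that every library of both groups carries that genotype. The PDGFA group is 3 libraries of cells kept 4 days in stem cell medium with platelet-derived growth factor A, a mitogen of glial precursors. The EF group, named as the control, is 3 libraries of cells of the same mice kept 4 days in medium that held EGF (epidermal growth factor), FGF (fibroblast growth factor) and heparin. One set of factors replaced another, so each difference is between the media as a whole. Libraries are called below by group and mouse, such as EF 68.

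In the brain, perivascular endfeet of astrocytes carry the water channel Aqp4, and Mlc1 sits at astrocyte contacts where cell volume is regulated. Connexins join astrocytes into a network of cells through which ions and small molecules pass. Glutamate released by neurons is cleared by the transporters Slc1a2 and Slc1a3, driven by the sodium gradient that the sodium pump keeps up, and glutamine synthetase (Glul) turns it into glutamine. Several of these genes, Slc1a3 and Glul among them, are also active in radial glia, the progenitors from which astrocytes come, so they do not by themselves mark a mature astrocyte.

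Recovered reads came to between 34812800 and 39601349 per PDGFA library and between 27270246 and 30151469 per EF library. Trp53 read 988.3 to 1122 normalized counts in PDGFA and 1672 to 2383 in EF; which part of the gene was deleted is not stated, so the reads are no check of the genotype. Progenitor markers were present in both groups: Nes had 1600 to 3420 normalized counts in PDGFA and 21108 to 48051 in EF, and Sox2 had 16806 to 18871 in PDGFA and 8502 to 13553 in EF. The summed level of 10 oligodendrocyte markers was 352459 to 432888 in PDGFA and 2723 to 4482 in EF, and that of 7 division markers 1821 to 2081 in PDGFA and 41505 to 88187 in EF. Neuron markers (7) summed to 12231 to 14952 in PDGFA, most of it from Elavl3 and Dcx, and 613.9 to 2059 in EF. The 3 ependymal markers with a row summed to 645.0 to 934.8 in PDGFA and 125.5 to 309.6 in EF. The part of these cells in the results below was not tested, and in such bulk samples fewer cells of a type and less RNA per cell cannot be told apart. Of 6 microglial markers 4 had no row in the table, and the sum of the others was at most 8.96 in PDGFA and 44.7 in EF.

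Of the 9 genes, Aqp4, Gja1, Gjb6 and Glul rose in PDGFA and none fell, by limma with Benjamini-Hochberg adjusted p under 0.05 over all tested genes. Over all tested genes, 21.8% were called higher and 18% lower in PDGFA. None of the 9 was lower at an unadjusted p under 0.05 in limma, and none was called lower by edgeR or DESeq2. The median log2 fold change of the 9 was 1.27, against -0.0095 over all tested genes. For the same 4 genes every PDGFA library lay above every EF library, which held for 29.2% of the tested genes, while 26.3% had every PDGFA library below. The changes ran from 91.2-fold for Aqp4 to 2.65-fold for Glul (ratio of the group means), whereas Slc1a3, per length the most abundant of the 9 in EF, had a log2 fold change near 0.

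**Figure D1:**
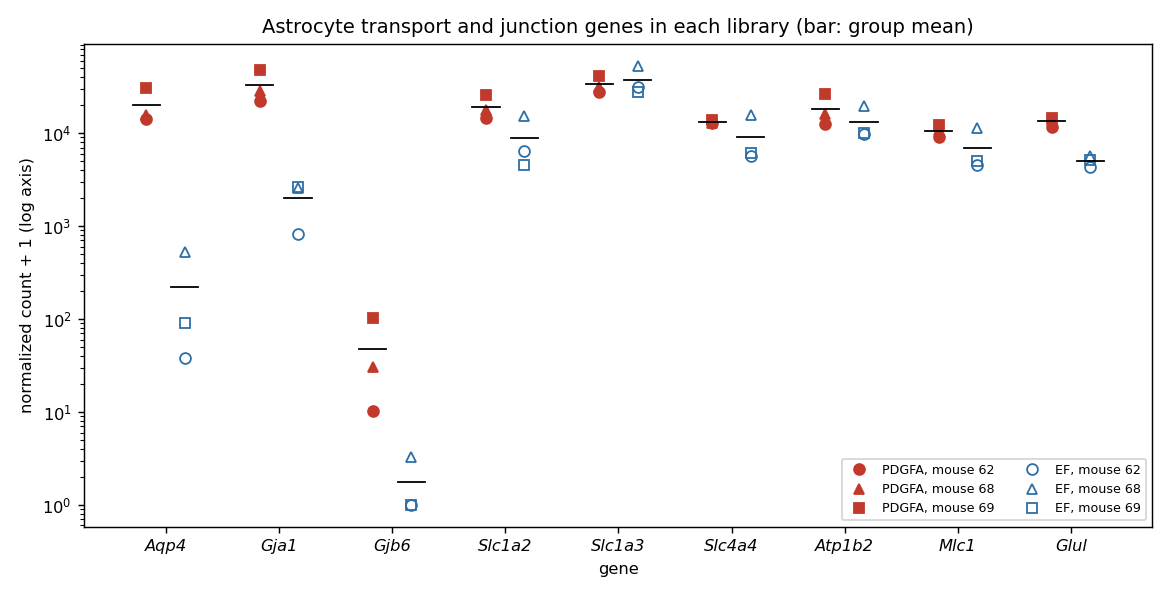
Normalized count plus 1 (log axis) of the 9 genes in each library, PDGFA (filled) left of EF (open), with 1 symbol per mouse and a bar at the group mean. Aqp4, Gja1, Gjb6 and Glul are separated between the media, and the triangle of EF 68 is the highest EF point for every gene but Gja1.

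Aqp4 (ENSMUSG00000024411.10, GRCm38 chromosome 18, 15389496 to 15410982, minus strand) encodes aquaporin 4, the main water channel of astrocytes. It had 14108, 15539 and 30416 normalized counts in PDGFA 62, 68 and 69, against 37.3, 531.4 and 89.5 in EF 62, 68 and 69. The lowest PDGFA library was far above the highest EF library, and the EF libraries themselves differed widely, with EF 68 at 8.38 times the mean of the other two. The group means were 20021 ± 9031 in PDGFA and 219.4 ± 271 in EF (SD, n = 3 each), a log2 fold change of 7.26 (SE 0.86, limma adjusted p = 0.000595), higher in all 3 mice. Within mice the log2 difference was 8.52 in mouse 62, 4.87 in mouse 68 and 8.39 in mouse 69. Without EF 68 the log2 fold change was 8.32, and without EF 62 it was 6.42, with adjusted p of 0.000142 and 0.00117; edgeR and DESeq2 each gave 6.51.

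Mlc1 (ENSMUSG00000035805.13, chromosome 15, 88955884 to 88979007, minus strand) encodes a membrane protein whose loss in humans causes a leukoencephalopathy with cysts. It had 9148, 10687 and 12171 normalized counts in PDGFA 62, 68 and 69, against 4595, 11285 and 5050 in the matching EF libraries. The groups overlapped through EF 68 alone, which lay inside the PDGFA range. The means were 10669 ± 1512 in PDGFA and 6976 ± 3738 in EF, a log2 fold change of 0.73 (SE 0.33, 95% interval -0.05 to 1.51, limma adjusted p = 0.122) that did not pass the threshold. Without EF 68 it was 1.14 with an adjusted p of 0.00371, and without EF 62 or EF 69 the adjusted p was 0.272 or 0.273.

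The genes that work beside Aqp4 and Mlc1 were described as a group of 13: other aquaporins, the dystrophin complex that anchors Aqp4, the Mlc1 partners Hepacam and Clcn2, and the calcium channel Trpv4. Of these, 6 rose (46.2%) and 0 fell in limma, against 21.8% and 18% of all tested genes. In the group, 1 was lower at an unadjusted p under 0.05, and 0 were called lower by edgeR and 1 by DESeq2. The median log2 fold change was 0.70. Aqp1, a water channel of choroid plexus in the healthy brain, had a log2 fold change of 3.96 and Trpv4 one of 3.17, both from low levels of 12.2 ± 3.11 and 9.55 ± 0.592 in EF, and Trpv4 passed the filter only through PDGFA. Hepacam, which carries Mlc1 to cell contacts, was 6633, 8721 and 10495 in PDGFA and 5301, 8829 and 6070 in EF (log2 fold change 0.37, adjusted p = 0.268).

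Gja1 (ENSMUSG00000050953.10, chromosome 10, 56377330 to 56402513, plus strand) encodes connexin 43, the principal astrocyte gap junction protein. It had 22105, 28369 and 47811 normalized counts in PDGFA 62, 68 and 69, against 824.5, 2579 and 2627 in EF 62, 68 and 69. All PDGFA values were above all EF values, and unlike the other 8 genes Gja1 was highest in EF 69, close to EF 68. The means were 32762 ± 13404 in PDGFA and 2010 ± 1027 in EF, a log2 fold change of 4.13 (SE 0.48, limma adjusted p = 0.000557), higher in all 3 mice. Over all alternatives run its log2 fold change lay between 3.58 and 4.46, with the call kept in each.

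Gjb6 (ENSMUSG00000040055.9, chromosome 14, 57123303 to 57133611, minus strand) encodes connexin 30, which brain astrocytes gain as they mature. It had 11, 31 and 113 reads in PDGFA 62, 68 and 69, against 0, 2 and 0 in the EF libraries. Those are 9.34, 29.6 and 101.2 normalized counts in PDGFA and 0, 2.25 and 0 in EF. The groups did not overlap, but the PDGFA libraries differed by more than the counting error of their reads, whose 95% Poisson intervals were 5.49 to 19.7 for PDGFA 62 and 93.1 to 135.9 for PDGFA 69. Taken over the groups, 155 reads in PDGFA against 2 in EF gave a ratio of 63.0 with a 95% counting interval of 17.1 to 524.5. The limma log2 fold change was 4.43 (SE 0.90, adjusted p = 0.00705). It was 3.59 without PDGFA 69 and 5.24 without PDGFA 62, and remained called. With a pseudocount of 8 it was 2.25, and in edgeR and DESeq2 5.77 and 5.97. Taking a count of 0 to allow 3 reads, a floor set apart from the Poisson intervals, Gjb6 could have been at up to 2.87 normalized counts in EF 62 and 3.84 in EF 69, for counting error only.

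The windows of 250 bases before to 50 bases after the RefSeq gene starts (GRCm38.p6) were available for 7 of the 9 genes, in 8 windows. They were searched on both strands for AP-1 (TGANTCA), STAT (TTCNNNGAA) and SOX (ACAAAG) letters, factor families with roles in growth factor response or in astrocyte formation. Just 2 windows held a match, that of Gja1, which rose, and that of Slc1a3, which was not called, and these are printed with the match in capitals. The AP-1 letters of Gja1 start 19 bases before the gene start, and those letters occur in 7.81% of 32851 such windows. The STAT letters of Slc1a3 start 96 bases before the gene start, and occur in 8.3% of the windows, and SOX letters in 18.7%. The matches overlap no other match in these windows, and a match is a description of the sequence.
Gja1, plus strand, chr10:56377050-56377349: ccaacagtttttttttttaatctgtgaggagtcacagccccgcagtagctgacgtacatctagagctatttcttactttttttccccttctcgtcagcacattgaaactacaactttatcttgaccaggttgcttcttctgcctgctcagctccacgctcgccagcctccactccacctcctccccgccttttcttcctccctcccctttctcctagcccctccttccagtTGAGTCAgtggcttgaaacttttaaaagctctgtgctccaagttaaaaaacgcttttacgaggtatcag
Slc1a3, minus strand, chr15:8710758-8711057: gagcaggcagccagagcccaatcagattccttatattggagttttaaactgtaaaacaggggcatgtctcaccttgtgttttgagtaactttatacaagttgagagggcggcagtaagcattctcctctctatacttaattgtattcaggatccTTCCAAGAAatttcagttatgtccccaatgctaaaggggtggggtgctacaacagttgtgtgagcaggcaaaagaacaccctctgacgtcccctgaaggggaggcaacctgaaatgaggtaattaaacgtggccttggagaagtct

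Among 9 tested genes of other connexins, pannexins and the junction scaffold Tjp1, 4 rose (44.4%) and 1 fell (11.1%). Over all tested genes 21.8% rose and 18% fell, and the median log2 fold change of the group was 2.42. Gjc3, a connexin of oligodendrocytes and their precursors in mice, averaged 4105 ± 354 in PDGFA and 557.6 ± 290 in EF (log2 fold change 3.02, adjusted p = 0.000693). Panx1 and Panx2, large-pore channels, had log2 fold changes of 1.48 and 4.66. Panx2, Gjb1 and Gjb2 averaged under 10 in EF and passed the filter only through PDGFA, and of these Panx2 and Gjb2 are among the genes that rose. Gjc1, connexin 45, averaged 318.5 ± 114 in PDGFA and 1111 ± 612 in EF and fell by 1.73 on the log2 scale (limma adjusted p = 0.0166), a call that was lost without PDGFA 69 (0.0582) and without both libraries of mouse 68 (0.0605). Without EF 68, 7 of the 9 were called higher, where 19.7% of all tested genes were. Gjc3 and the oligodendrocyte marker sum given above were both higher in PDGFA, but their order within a medium differed. Gjc3 was highest in PDGFA 68 (4452) and EF 69 (854.0), the sum in PDGFA 69 (432888) and EF 68 (4482). The part of oligodendrocytes in the Gjc3 rise was not tested.

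Slc1a2 (ENSMUSG00000005089.15, chromosome 2, 102658659 to 102790784, plus strand) encodes GLT-1, the glutamate transporter that dominates in the adult forebrain. It had 14423, 17661 and 25501 normalized counts in PDGFA 62, 68 and 69, against 6479, 15402 and 4595 in EF 62, 68 and 69. EF 68 reached into the PDGFA range, while EF 62 and EF 69 were below every PDGFA library. The means were 19195 ± 5696 in PDGFA and 8825 ± 5773 in EF, a log2 fold change of 1.27 (SE 0.44, 95% interval 0.26 to 2.29), higher in all 3 mice. Its limma adjusted p of 0.0512 missed the threshold. It came to 0.0468 when the mouse entered the fit as a block, 0.0333 in DESeq2, 0.0928 in edgeR and 0.00474 once EF 68 was left out; the alternatives spanned 0.00474 to 0.163.

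Slc1a3 (ENSMUSG00000005360.14, chromosome 15, 8634124 to 8710764, minus strand) encodes GLAST, the glutamate transporter of radial glia and young astrocytes. It had 27866, 31431 and 41229 normalized counts in PDGFA 62, 68 and 69, against 31063, 52934 and 28047 in EF 62, 68 and 69. The groups overlapped across most of their ranges, with PDGFA higher in mouse 69 alone. The means were 33509 ± 6919 in PDGFA and 37348 ± 13582 in EF, a log2 fold change of -0.12 (SE 0.29, limma adjusted p = 0.771). Its 95% interval of -0.79 to 0.55 leaves room for a change in either direction, and the sign turned without EF 68 (0.16).

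The balance between the 2 glutamate transporters differed in every mouse. Per exonic kilobase, Slc1a2 made up 25.2%, 26.8% and 28.7% of the Slc1a2 and Slc1a3 signal in PDGFA 62, 68 and 69, against 11.9%, 15.9% and 9.62% in EF 62, 68 and 69. No PDGFA share fell within the EF range. The log2 ratio of Slc1a2 to Slc1a3 averaged -0.82 ± 0.13 in PDGFA and -2.22 ± 0.42 in EF, a difference of 1.39 that does not depend on how the libraries are scaled. The exact two-sided permutation test over the libraries gave p = 0.1, the smallest that 3 against 3 can give. Leaving out each library in turn kept the difference between 1.20 and 1.61. For the connexins, the log2 ratio of Gja1 to Gjb6 was 9.93 ± 1.10 in PDGFA and 10.2 ± 0.98 in EF (exact permutation p = 0.7), with a sign that turned under another pseudocount and rests on the few Gjb6 reads.

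**Figure D2:**
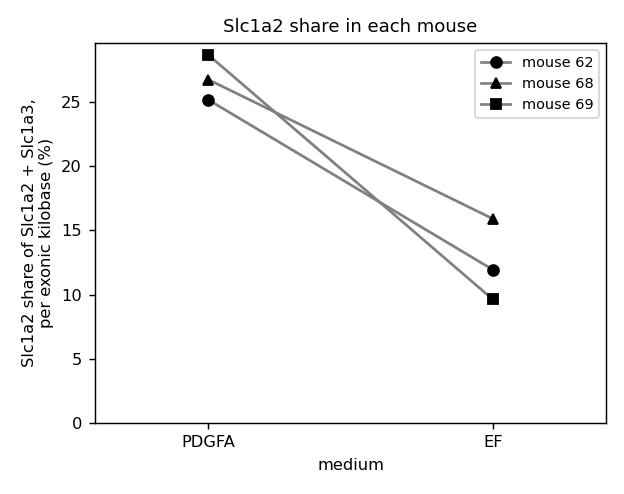
Slc1a2 as a percent of Slc1a2 plus Slc1a3 normalized counts per exonic kilobase, PDGFA left and EF right, with a line joining the libraries of each mouse. The 3 PDGFA shares, 25.2% to 28.7%, are above the 3 EF shares, 9.62% to 15.9%.

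Glul (ENSMUSG00000026473.15, chromosome 1, 153899944 to 153909723, plus strand) encodes glutamine synthetase, the enzyme that makes glutamine from glutamate and ammonia. It had 11634, 13946 and 14709 normalized counts in PDGFA 62, 68 and 69, against 4286, 5718 and 5202 in EF 62, 68 and 69. Both groups were tight and did not overlap. The means were 13430 ± 1601 in PDGFA and 5069 ± 726 in EF, a log2 fold change of 1.41 (SE 0.17, limma adjusted p = 0.00057). The within-mouse differences of 1.44, 1.29 and 1.50 were the most even of the 4 genes that rose. About 3.49% of its exonic bases overlap the antisense gene Teddm2 and 1.44% of those of Slc1a2 overlap Gm13872, where a library that does not mark strand cannot separate the genes.

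Of 16 other tested genes of the glutamate, glutamine and GABA cycle, 2 rose (12.5%) and 7 fell (43.8%). All tested genes gave 21.8% and 18%, and the median log2 fold change of the group was -0.82. Slc1a1, EAAC1, is a glutamate transporter best known from neurons and also present in the oligodendrocyte lineage. Neuron and oligodendrocyte marker sums were higher in PDGFA. Most of the neuron sum came from Elavl3 (7206 ± 903 in PDGFA, 466.6 ± 321 in EF) and Dcx (4934 ± 941 and 130.8 ± 186). Of 6 tested neuron markers 3 were called higher (50%) and 0 lower, while Snap25, Syt1 and Rbfox3 were not called. The sums of 6 precursor markers overlapped, at 118858 to 195076 in PDGFA and 79077 to 146027 in EF, but their genes moved in opposite directions. Gpr17 and Sox10 were called higher (2 of 6, 33.3%), Olig1, Olig2 and Cspg4 lower (3 of 6, 50%), and Pdgfra was not called. Gpr17 averaged 88744 ± 21170 in PDGFA and 1283 ± 2095 in EF, and Olig1 23378 ± 6256 and 50769 ± 10703. The part of these cells in the Slc1a1 values was not tested. Slc1a1 had 15300, 13375 and 11397 normalized counts in PDGFA and 103.4, 1026 and 37.1 in EF. Its log2 fold change was 6.37 (limma adjusted p = 0.00258), 7.72 without EF 68, 5.34 without EF 69 and 5.10 in edgeR and DESeq2. Glud1, glutamate dehydrogenase, rose by 1.10 (adjusted p = 0.00358). Slc1a5, a neutral amino acid exchanger that brings glutamine into dividing cells, averaged 90.1 ± 8.06 in PDGFA and 1436 ± 292 in EF, and fell by 3.96 on the log2 scale (adjusted p = 2.45e-05). Slc25a18, a mitochondrial glutamate carrier, fell by 1.67 and Slc38a2, a sodium-coupled neutral amino acid transporter, fell by 1.26. Without PDGFA 62 or without PDGFA 68, 4 genes of this group were called lower.

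Slc4a4 (ENSMUSG00000060961.14, chromosome 5, 88886818 to 89239653, plus strand) encodes NBCe1, the sodium bicarbonate cotransporter that sets astrocyte pH. It had 12807, 13027 and 13979 normalized counts in PDGFA 62, 68 and 69, against 5720, 15577 and 6131 in EF 62, 68 and 69. The PDGFA libraries were close to each other, and EF 68 exceeded all of them while EF 62 and EF 69 were at less than the lowest. The means were 13271 ± 623 in PDGFA and 9143 ± 5576 in EF, a log2 fold change of 0.70 (SE 0.36, 95% interval -0.15 to 1.54, limma adjusted p = 0.164). Without EF 68 it was 1.16 with an adjusted p of 0.00152, and without EF 62 or EF 69 the adjusted p was 0.361 or 0.359.

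Atp1b2 (ENSMUSG00000041329.13, chromosome 11, 69599736 to 69605942, minus strand) encodes the beta 2 subunit of the sodium pump, also known as the adhesion molecule on glia. It lies 7862 bases from Trp53, the gene that the labels give as null in every library. It had 12582, 15912 and 26665 normalized counts in PDGFA 62, 68 and 69, against 9838, 19482 and 10066 in EF 62, 68 and 69. The groups overlapped through EF 68. The means were 18387 ± 7360 in PDGFA and 13129 ± 5503 in EF, a log2 fold change of 0.49 (SE 0.36, 95% interval -0.34 to 1.32, limma adjusted p = 0.309). It was not called in any alternative, with an adjusted p of 0.0941 without EF 68.

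Of 7 other tested sodium pump subunits and regulators, 3 rose (42.9%) and 1 fell (14.3%), against 21.8% and 18% of all tested genes. Their median log2 fold change was 1.50. Fxyd1, phospholemman, a small regulator of the pump, had 544.0, 1124 and 1560 normalized counts in PDGFA 62, 68 and 69. It had 1.92, 1.13 and 0 in EF 62, 68 and 69, and passed the filter only through PDGFA. Its log2 fold change was 9.07 (SE 0.55, limma adjusted p = 3.25e-05). Pooled over the libraries, 3559 reads in PDGFA and 3 in EF gave a ratio of 963.7, with a 95% counting interval of 329.5 to 4675. That interval leaves out the spread between libraries. Atp1b1, the widespread beta subunit, averaged 2306 ± 767 in PDGFA and 798.8 ± 284 in EF (log2 fold change 1.53, adjusted p = 0.0079). Atp1b3 averaged 1429 ± 71.5 in PDGFA and 3245 ± 711 in EF and fell by 1.16 on the log2 scale (adjusted p = 0.00218).

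Among 15 genes of potassium, acid-base and lactate transport, 4 rose and 4 fell (26.7% each) around a median log2 fold change of -0.05. Of all tested genes 21.8% were called higher and 18% lower, so these counts are near the general share. The bicarbonate transporters Slc4a8, Slc4a3 and Slc4a2 rose by 2.15, 1.09 and 0.62, and Slc4a7, another, fell by 1.19. The call of Slc4a2 was lost without PDGFA 68 (adjusted p = 0.0597) or PDGFA 69 (0.0524). Kcnj16, an inward rectifier potassium channel, averaged 711.2 ± 79.3 in PDGFA and 2372 ± 491 in EF and fell by 1.72 (adjusted p = 0.000362). Its partner Kcnj10 was 7370, 8059 and 7308 in PDGFA and 4135, 7722 and 3260 in EF (log2 fold change 0.69, adjusted p = 0.103). Slc16a3, a lactate exporter of glycolytic cells, fell by 4.07 on the log2 scale, a value of -3.44 once EF 68 was left out and -4.83 once EF 69 was. Without PDGFA 68 or without PDGFA 69, 2 genes of this group were called higher.

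**Figure D3:**
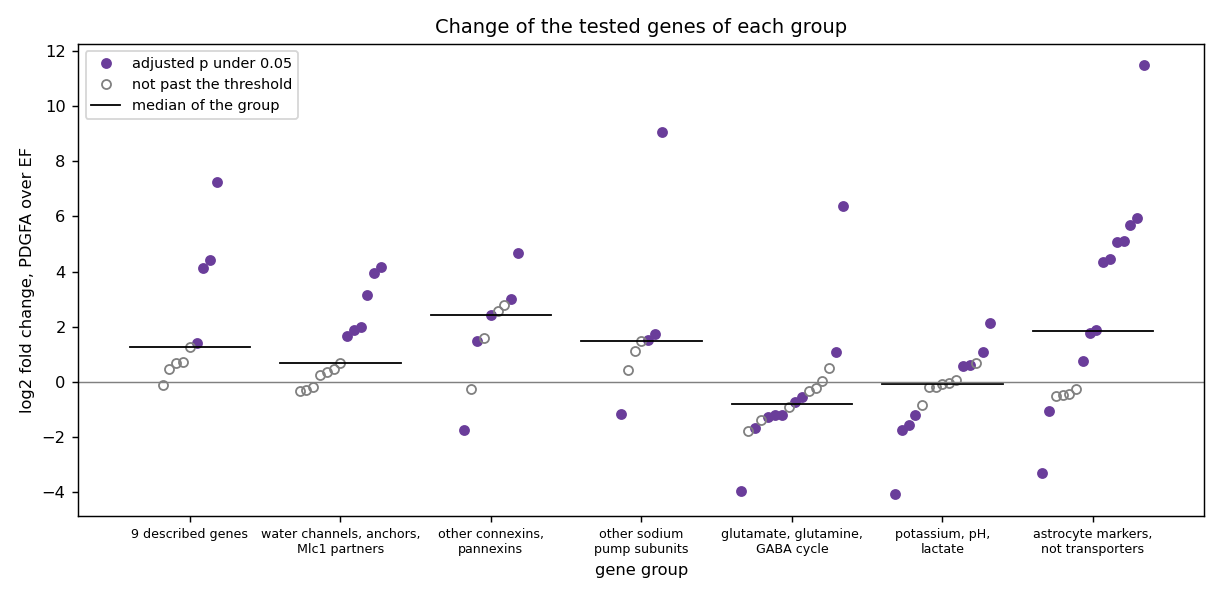
Log2 fold change (PDGFA over EF) of each tested gene of the 9 described genes and 6 related groups, filled where the limma adjusted p is under 0.05, with the median of the group as a line. The glutamate, glutamine and GABA group is the one with more filled points below 0 (7) than above it (2).

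Divided by exonic length, the 9 genes ranked differently in the 2 media. In PDGFA the mean level was 4501 normalized counts per kilobase for Atp1b2, 4041 for Glul, 3925 for Slc1a3, 3809 for Mlc1, 3212 for Aqp4 and 3194 for Gja1, and neighbours in this order overlapped in their library ranges. Slc1a2 at 1462 and Slc4a4 at 1227 followed, below every library of Gja1 and overlapping each other, and Gjb6 was last at 17.5. In EF the order was led by Slc1a3 at 4375, then Atp1b2 at 3214, Mlc1 at 2491, Glul at 1525, Slc4a4 at 845.4 and Slc1a2 at 672.0. Gja1 at 196.0, Aqp4 at 35.2 and Gjb6 at 0.281 came last. Each EF neighbour stood above the next in all 3 libraries, although the ranges of neighbours overlapped except between Slc1a2 and Gja1 and between Aqp4 and Gjb6. Aqp4 and Gja1 thus stood near Mlc1 and Slc1a3 in PDGFA and far below them in EF.

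The spread among libraries of one medium was shared by the genes. EF 68 was the highest EF library for 8 of the 9 genes, against 24% of all tested genes, and stood at 1.21 times (Glul) to 8.38 times (Aqp4) the mean of the other two among the 8 genes with reads in those. PDGFA 69 was the highest PDGFA library for 9 of 9, against 38.2% of all tested genes, and PDGFA 62 the lowest for 9 of 9, against 36.5%. The 9 genes are not independent, so these counts describe libraries and not separate observations. EF 68 also had the highest EF sum of 6 oligodendrocyte precursor markers, 146027 against 79077 in EF 62 and 92118 in EF 69, and of 16 astrocyte markers that are not transporters, 112533 against 81469 and 102590. The same held for oligodendrocyte (4482), neuron (2059) and ependymal markers (309.6). It also held for 4 endothelial and pericyte markers, 371.5 against 61.3 in EF 62 and 40.9 in EF 69. That excess came almost wholly from Flt1, at 332.1 against 30.6 in EF 62 and 20.5 in EF 69. Pecam1 was 33.8 in EF 68 against 30.6 and 17.9, and Rgs5 was 5.63 against 0 and 0. Progenitor and radial glia (187028), division (88187) and microglial markers (44.7) had their highest EF sum in EF 69. The part of other cells in the values of EF 68 was not tested. Without EF 68, Slc1a2, Slc4a4 and Mlc1 joined the 4 genes that were called, so that 7 of 9 rose, where 19.7% of all tested genes were called higher. Leaving out the highest EF library of a gene raises its difference by construction, so the added calls are no separate support. Leaving out any other single library gave 4 genes called higher.

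**Figure D4:**
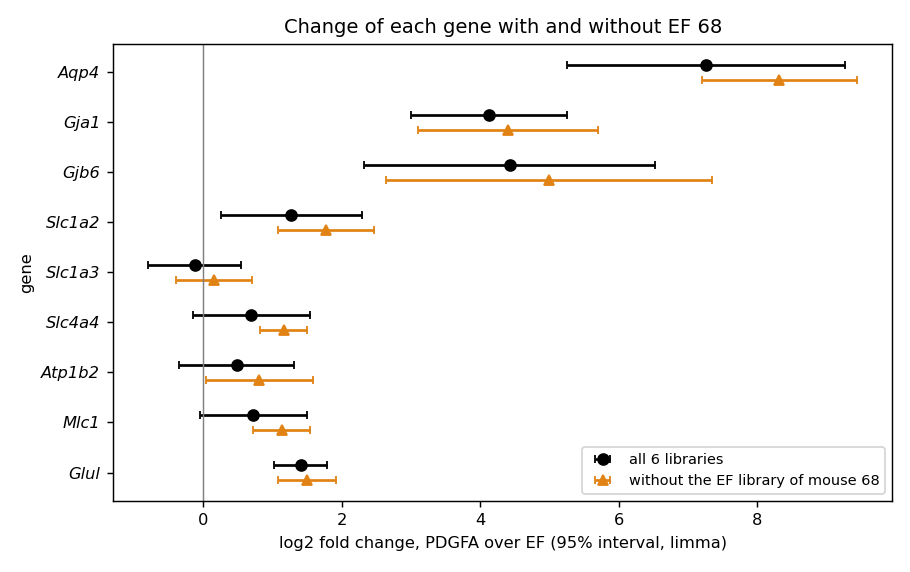
Limma log2 fold change (PDGFA over EF) of the 9 genes with its 95% interval, from all 6 libraries (circles) and without EF 68 (triangles). The intervals of Slc4a4, Mlc1 and Atp1b2 include 0 with EF 68 and exclude it without, and that of Slc1a3 includes 0 in both.

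Astrocyte markers that are not transporters moved in both directions, with 10 of 16 higher (62.5%) and 2 lower (12.5%). Their median log2 fold change was 1.84, and 21.8% and 18% of all tested genes were called higher and lower. Gfap, the astrocyte intermediate filament, had 72518, 93063 and 107416 normalized counts in PDGFA and 19.2, 67.6 and 21.7 in EF. Ntsr2, a neurotensin receptor, and Clu, a secreted chaperone, rose by 4.45 and 5.96, the second by 6.72 without EF 68. Acsbg1, an acyl-CoA synthetase, averaged 1297 ± 885 in PDGFA and 11198 ± 1835 in EF and fell by 3.30 (limma adjusted p = 0.000785), and the transcription factor Nfib fell by 1.06 (adjusted p = 0.00135). Aldh1l1, a broad astrocyte marker, was 4292, 5091 and 10520 in PDGFA and 6509, 7946 and 11993 in EF (adjusted p = 0.333).

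The genes with the nearest profile over the 6 libraries were found by the root mean square difference of log2 values, each gene centred on its own mean, as a description. Slc4a4 lay nearest to Spon1 (0.0624), with Mlc1 second (0.103), and that was the closest pair within the 9 genes. Mlc1 had Camk4 (0.0598) and Ccn1 (0.0963), Glul had Mindy1 (0.0539) and Scp2 (0.0679), and Slc1a3 had Htra1 (0.0682) and Arap1 (0.117). Slc1a2 was followed by Tspan7 (0.134) and Scn2a (0.137), and Atp1b2 by Arsa (0.125) and Frmpd1 (0.152). The high-fold genes had looser neighbours, with Islr (0.26) and Irs4 (0.287) for Gja1, Cyp2j13 (0.295) and Adam2 (0.437) for Gjb6, and Srcin1 (0.459) and Cnmd (0.492) for Aqp4. Islr and Adam2 averaged under 1 normalized count in EF, so their profiles rest on few reads.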

How the data were processed

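RNA of 6 libraries was sequenced, 3 per medium, from 1.3 ug of total RNA each with a kit that does not mark strand, per the labels' protocols. The authors deposited a normalized signal, in which the reads of a gene are divided by the size factor of the library. FastQC, STAR, DESeq2 and mm10 (GRCm38) are named per the submitters' processing notes; for versions, annotation and strand setting, nothing is stated in the sources used here. All values (100%, tolerance 0.001) were whole multiples of the smallest value of their library, so reads were recovered. Genes with a mean normalized count of at least 10 were tested as log2(value + 1) with limma 3.58.1 (mean trend, group only, two-sided) in R 4.3.3, with Benjamini-Hochberg adjustment over all of them. Log2 fold changes of genes with few reads are understated by the added 1. The recovered reads were also tested with edgeR 4.0.16 and DESeq2 1.42.0. Means are ± SD over 3 libraries. Reads carry no molecular identifiers in the labels, so intervals cover counting error only, and depth limits genes with few reads.

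The mouse number in the titles ties each PDGFA library to the EF library of one animal; their deviations from the means of the groups correlated at -0.091, 0.11 and -0.11 in mice 62, 68 and 69. Libraries within a medium differed by more than sampling noise (chi-square 21.9 to 155.4 for each degree of freedom). The genes, lists and tests were chosen with earlier results of these data known. All 9 genes are named, and from each related list up to 3 called genes per direction with the smallest p, plus the 2 nearest profiles per gene. A few genes taken by this rule are left unreported. Hepacam, Kcnj10, Aldh1l1 and the progenitor markers were added after their values were seen. Coordinates and exonic lengths are from GENCODE M21 (GRCm38).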

Additional observations from a re-analysis of the deposited data

How the results depend on the processing

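Aqp4, Gja1 and Glul were called higher in all 17 alternatives and Gjb6 in the 16 that kept it, while Slc1a3 and Atp1b2 were called in none. The mouse as a block moved the count of the 9 genes called higher to 5, by adding Slc1a2, and changed no other call among them. Without both libraries of mouse 68, 7 of the 9 were called higher, and leaving out 1 library gave 4 to 7, with 0 lower throughout. The log2 fold change of Slc1a3 turned to 0.20 without both libraries of mouse 68, 0.0055 without PDGFA 62 and 0.16 without EF 68, and spanned -0.29 to 0.16 over single omitted libraries, and it was -0.40 with quantile normalization (adjusted p = 0.26); the cause was not tested. The Gja1 to Gjb6 difference was 1.87 with a pseudocount of 8 and -0.86 to 0.27 over the omitted libraries (0.23 without PDGFA 69, 0.27 without EF 69). With sign flips within mice, the smallest possible exact permutation p is 0.25, which the Slc1a2 to Slc1a3 difference of 1.39 reached. Without both libraries of mouse 68 the log2 fold changes of Aqp4, Gjb6, Slc1a1, Slc16a3 and Clu were 8.46, 5.02, 7.71, -3.36 and 6.85. A pseudocount of 8 gave 2.54 for Trpv4 and 3.30 for Panx2, and one of 0.5 gave 5.14 for Gjb6.

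Leaving out 1 library gave 0 to 1 lower calls for the water group (1 in DESeq2), 3 to 7 higher and 0 to 1 lower for the connexins, and 2 to 5 higher for the pump subunits. It gave 4 to 6 lower for the glutamate group and 2 to 4 higher for the potassium group. The connexins had 2 lower calls with no filter on low values and 0 without both libraries of mouse 68, where the glutamate group had 4. Over all tested genes, 2306 to 4213 were called higher and 1855 to 3848 lower with 1 library left out, and 1945 and 1335 without both of mouse 68, where fewer samples enter. No scaling alternative moved the median of all genes by more than 0.1 on the log2 scale.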

Other observations

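A list of 8 progenitor and radial glia markers, which does not hold Slc1a3, moved in both directions. In limma 4 were higher (50%) and 3 lower (37.5%), against 21.8% and 18% of all tested genes. Pax6 was not called (log2 fold change 0.47, limma adjusted p = 0.122). These genes were chosen for naming after their values were seen. Nes, an intermediate filament of neural progenitors, averaged 2575 ± 917 normalized counts in PDGFA and 33684 ± 13560 in EF, and fell by 3.70 on the log2 scale (adjusted p = 0.000253). Fabp7, a fatty acid binding protein of radial glia, fell by 1.28 (adjusted p = 0.0112), a call lost when mouse 68 was left out (0.0884). Vim fell by 1.53 (adjusted p = 0.0186), not called without PDGFA 62 (0.0666) or PDGFA 68 (0.0639). Hes5, a target of Notch, rose by 1.59 (adjusted p = 0.00401) and was called in each alternative. Msi1, Prom1 and Sox2 rose by 1.18, 1.31 and 0.68 (adjusted p = 0.0123, 0.0413 and 0.0291). Those calls were lost without PDGFA 69 for Msi1 (0.0527), for Prom1 without PDGFA 68 (0.106), PDGFA 69 (0.142), EF 62 (0.0651) or EF 69 (0.0681), and for Sox2 once EF 68 (0.0549) or 1 of the PDGFA libraries (0.0750 to 0.115) was left out.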
